A study of Mus musculus with 10 samples.

Results

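The ligands, receptors and latency proteins of transforming growth factor beta (TGF-beta) were followed in mouse quadriceps muscle as 10 genes, chosen by symbol: the ligands Tgfb1, Tgfb2 and Tgfb3, the receptors Tgfbr1, Tgfbr2 and Tgfbr3, and the latent TGF-beta binding proteins Ltbp1, Ltbp2, Ltbp3 and Ltbp4. They are 10 of the 24063 gene symbols in the deposited tables, and all 10 had enough reads to be tested. RNA sequencing libraries came from 5 mice given a supplement called 1C-MIM in their drinking water for 1 to 3 months and 5 Control mice that drank the animal facility's water (what 1C-MIM contains is not stated in the labels). The animals of both groups were old, 17 to 20 months, of wild-type genotype and C57BL background, and lived at most 5 to a cage. In both groups a tibialis anterior muscle had been injured, and the sampled quadriceps was an uninjured one. No label names a sex, cage or library batch, and the p-values measure the spread between these 10 animals. A serial number in the deposited names, which the labels do not explain, is lower for every 1C-MIM library than for every Control library, so any effect of the order it stands for cannot be told apart from that of 1C-MIM.

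TGF-beta is secreted in a silent form. Each ligand is cut from its own propeptide but stays wrapped in it, and the propeptide is tethered by an LTBP to fibrillin and fibronectin fibres of the extracellular matrix until integrins, proteases or thrombospondin release the ligand. The free ligand binds TGFBR2, which recruits and switches on TGFBR1, and TGFBR1 phosphorylates SMAD2 and SMAD3, which enter the nucleus with SMAD4. In skeletal muscle the pathway is known for driving fibroblasts to lay down collagen and for restraining myoblast differentiation.

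The start-site regions of 3 of the genes are shown for a ligand that was lower with 1C-MIM (Tgfb1), a ligand that was higher (Tgfb2) and the latency protein that was higher (Ltbp3), so that the letters around their starts can be compared. Each is the RefSeq window on build GRCm38.p6 from 250 bases before to 50 bases after the start, read 5′ to 3′ on the gene's strand; Tgfb1 lies at chr7:25686752-25687051 on the plus strand, Tgfb2 at chr1:186705940-186706239 on the minus strand and Ltbp3 at chr19:5740650-5740949 on the plus strand. Capitals mark matches, on either strand, to a GC box (GGGCGG, the core of Sp1 sites), a TATA box (TATAAA) or an AP-1 site (TGACTCA, bound by Fos and Jun proteins).
Tgfb1: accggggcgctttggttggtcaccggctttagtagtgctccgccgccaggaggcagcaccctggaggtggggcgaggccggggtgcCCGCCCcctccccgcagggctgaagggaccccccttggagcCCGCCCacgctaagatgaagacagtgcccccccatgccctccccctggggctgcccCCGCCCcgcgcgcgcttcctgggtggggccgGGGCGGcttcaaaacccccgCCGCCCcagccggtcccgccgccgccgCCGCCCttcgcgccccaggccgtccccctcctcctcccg
Tgfb2: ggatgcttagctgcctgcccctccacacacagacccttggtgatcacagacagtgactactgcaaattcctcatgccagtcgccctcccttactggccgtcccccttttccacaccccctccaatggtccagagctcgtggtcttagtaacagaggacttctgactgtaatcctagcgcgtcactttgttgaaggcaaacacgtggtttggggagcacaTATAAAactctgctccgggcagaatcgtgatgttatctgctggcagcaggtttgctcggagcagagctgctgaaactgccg
Ltbp3: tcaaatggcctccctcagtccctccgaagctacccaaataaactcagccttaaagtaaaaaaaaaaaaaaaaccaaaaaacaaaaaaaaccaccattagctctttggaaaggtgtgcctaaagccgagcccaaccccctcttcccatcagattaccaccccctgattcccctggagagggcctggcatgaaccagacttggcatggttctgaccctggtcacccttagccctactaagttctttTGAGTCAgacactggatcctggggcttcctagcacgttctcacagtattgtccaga
The Tgfb1 window had 77% G and C with 6 GC boxes and no TATA match, and the Tgfb2 window had 54.3% with a single TATA match and no GC box. The Ltbp3 window had 48% and a single AP-1 match. Among all 32851 windows of this length the median was 52.7% G and C; 35.7% held a GC box, 13.6% the TATA letters and 5.2% the AP-1 letters. Windows were found for 8 of the 10 genes, 12 windows in all. Tgfb3 and Tgfbr3, both higher with 1C-MIM, had none. The AP-1 letters occurred in 1 of the 12, the TATA letters in 1 and GC boxes in 6. The 6 were windows of Tgfb1, Tgfbr1 and Ltbp2 and the 3 windows of Ltbp4. Of the Ltbp4 windows 2 largely overlap, so the 6 are not separate stretches. The cyclic AMP element TGACGTCA occurred in 1, an Ltbp1 window, against 1.79% of all windows, and the SMAD palindrome GTCTAGAC in 0 of the 12, against 0.213% of all.

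Per transcript length, the latency proteins Ltbp4 and Ltbp3 were the most abundant of the 10 genes, followed by Tgfb3, and the latency proteins Ltbp1 and Ltbp2 were the least. The deposited FPKM, fragments per kilobase of transcript scaled to library size, are used here because levels of different genes can be compared only per length. Ltbp4 had 11.4 ± 2.03 FPKM in 1C-MIM and 10.3 ± 2.33 FPKM in Control (SD, n = 5 each), and Ltbp3 had 8.51 ± 0.393 FPKM in 1C-MIM and 7.65 ± 0.46 FPKM in Control. Then came Tgfb3, Tgfbr2, Tgfbr3, Tgfb2, Tgfbr1, Tgfb1 and Ltbp1, with means over the 10 libraries of 6.24, 5.15, 3.05, 2.83, 2.59, 1.82 and 1.27 FPKM, and last Ltbp2 with 0.115 FPKM. The ranges over the 10 libraries were clear of each other between Ltbp3 and Tgfb3, between Tgfbr2 and Tgfbr3 and between Ltbp1 and Ltbp2, and overlapped between all other neighbours. Tgfb1 had the lowest FPKM of the 3 ligands in 9 of the 10 libraries (in Control 5 it had 2.43 FPKM, above Tgfb2 with 2.2 FPKM), at 1.32 to 1.57 FPKM in 1C-MIM and 1.84 to 2.53 FPKM in Control. Its share of the summed FPKM of the 3 ligands was 13% ± 0.561 in 1C-MIM and 20.5% ± 2.49 in Control (SD, n = 5 each), with no overlap between the groups. Tgfb3 held 59.3% ± 1.57 of that sum in 1C-MIM and 55.2% ± 2.33 in Control.

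**Figure D1:**
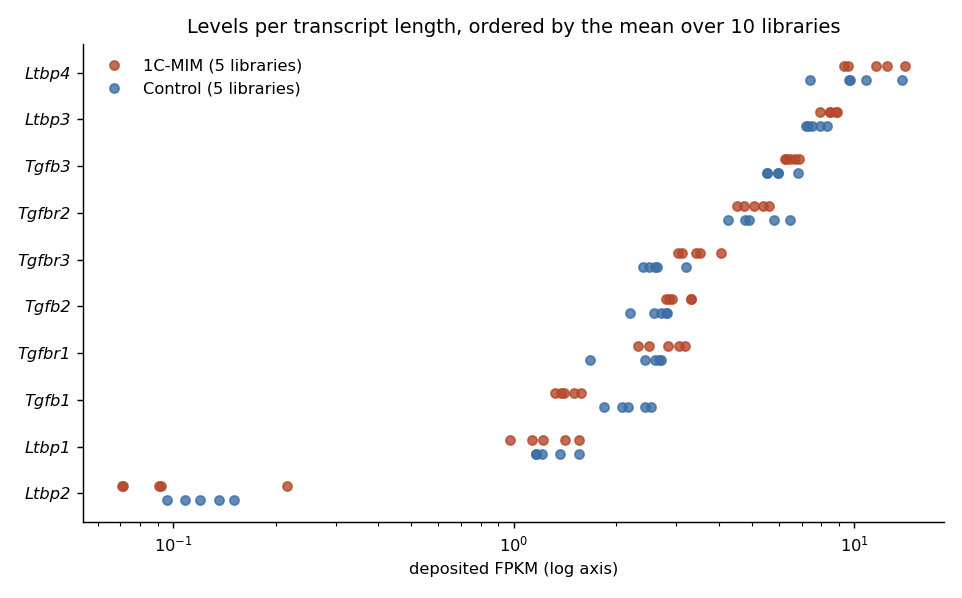
Deposited FPKM of the 10 genes on a log axis, ordered from the highest mean at the top, with a point for each library and the 1C-MIM points above the Control points. Ltbp4 and Ltbp3 lie highest, Ltbp2 lies far below the rest, and for Tgfb1 the 1C-MIM points (1.32 to 1.57 FPKM) lie left of the Control points (1.84 to 2.53 FPKM).

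Between the groups, 5 of the 10 genes passed the test. Tgfb1 fell in 1C-MIM muscle, and Tgfb2, Tgfb3, Tgfbr3 and Ltbp3 rose, by smaller amounts on the log2 scale. Of all 13880 genes tested, 21.6% passed, 9.78% as higher and 11.8% as lower in 1C-MIM (1357 and 1642 genes; 606 and 2895 with library totals as the scaling). Counts were compared with edgeR's quasi-likelihood test with Benjamini-Hochberg adjustment over all tested genes, and expression is given as counts per 1000000 scaled by TMM factors (CPM). The median log2 fold change of the 10 genes was 0.20, beside 0.001 for all genes tested. In whole muscle RNA, fewer cells of a type and less RNA per cell cannot be told apart.

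Tgfb1, the ligand made by macrophages, platelets and many stromal cells, fell. In 1C-MIM it had 5.73, 5.74, 5.38, 5.40 and 6.25 CPM (replicates 1 to 5), against 8.18, 7.04, 9.27, 7.85 and 9.73 CPM in Control. Every 1C-MIM library lay below every Control library, and the 1C-MIM values were the tighter set. The mean was 5.70 ± 0.352 CPM in 1C-MIM and 8.41 ± 1.08 CPM in Control (SD, n = 5 each), a log2 fold change of -0.56 (SE 0.10, 95% interval -0.77 to -0.35) or -32.2%, with edgeR adjusted p = 0.00271.

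Tgfb2, the isoform with low affinity for TGFBR2 on its own, moved the other way. It had 26.3, 28.5, 26.6, 28.8 and 25.7 CPM in 1C-MIM, against 22.1, 23.3, 23.3, 23.9 and 19.9 CPM in Control. The groups did not overlap, with the lowest 1C-MIM library (25.7 CPM) just above the highest Control library (23.9 CPM). Its log2 fold change was 0.27 (SE 0.06, 95% interval 0.13 to 0.41, edgeR adjusted p = 0.0113).

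Tgfb3, the most abundant ligand here, had 42.1, 41.4, 42.5, 39.2 and 44.3 CPM in 1C-MIM, against 41.9, 34.2, 35.3, 36.3 and 36.0 CPM in Control. All 1C-MIM libraries lay above the Control mean, but Control 1 lay among them and apart from the other Controls. The log2 fold change of 0.19 (SE 0.06, 95% interval 0.05 to 0.33) was close to the threshold, with edgeR adjusted p = 0.0477. It was 0.24 without Control 1 (edgeR adjusted p = 0.0112), and the call was lost when any other single library was left out (adjusted p = 0.0549 to 0.0961).

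**Figure D2:**
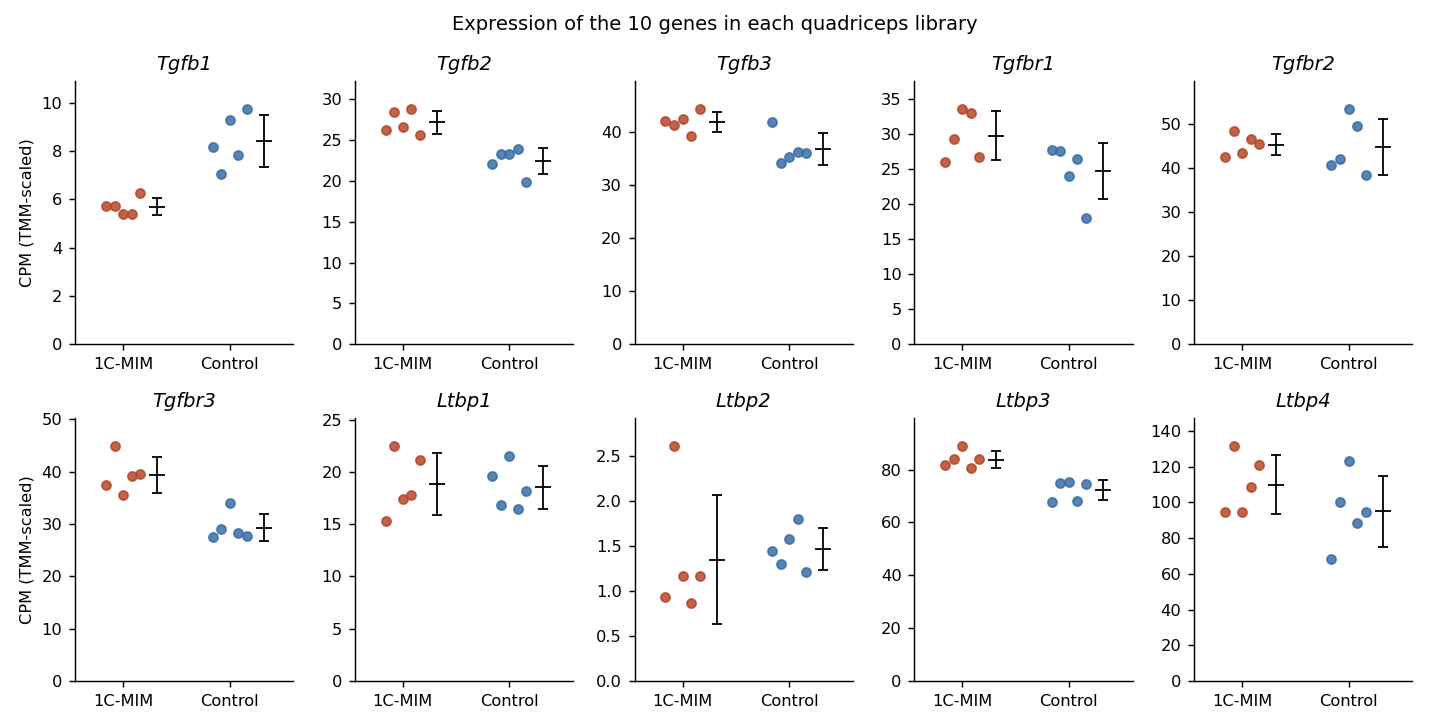
Expression of each of the 10 genes in CPM, with a point per library, 1C-MIM left and Control right, and the group mean with its SD (n = 5) beside the points; every axis starts at 0. The groups do not overlap for Tgfb1, Tgfb2, Tgfbr3 and Ltbp3, and 1C-MIM 2 stands alone for Ltbp2 at 2.61 CPM.

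Among the receptors, only Tgfbr3 passed the test. Tgfbr3, also called betaglycan, is a co-receptor without kinase activity that presents ligand, TGF-beta2 above all, to TGFBR2. It had 37.5, 44.9, 35.6, 39.1 and 39.5 CPM in 1C-MIM, against 27.5, 29.1, 33.9, 28.3 and 27.7 CPM in Control. The groups did not overlap, although Control 3 at 33.9 CPM came close to 1C-MIM 3 at 35.6 CPM and stood apart from the other Controls. The mean was 39.3 ± 3.47 CPM in 1C-MIM and 29.3 ± 2.68 CPM in Control (SD, n = 5 each), which is 0.42 higher on the log2 scale (SE 0.08, 95% interval 0.26 to 0.59; adjusted p = 0.00294 by edgeR), the largest increase of the 10 genes.

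Tgfbr1, the kinase that phosphorylates SMAD2 and SMAD3, had 26.0 to 33.6 CPM in 1C-MIM and 18.1 to 27.8 CPM in Control. The groups overlapped, all 5 1C-MIM libraries lay above the Control mean, and Control 5 was the lowest of the 10 libraries. Its log2 fold change of 0.26 (SE 0.11, 95% interval 0.02 to 0.51) did not pass after adjustment (edgeR adjusted p = 0.109). Tgfbr2, the ligand-binding kinase, had 42.4 to 48.3 CPM in 1C-MIM and 38.4 to 53.3 CPM in Control, so that the 1C-MIM range lay wholly inside the Control range. Its log2 fold change was 0.01 (SE 0.09, 95% interval -0.17 to 0.20, edgeR adjusted p = 0.931). The 2 Tgfbr2 transcripts in the tables had the same total count and were not separated, and the second transcripts of Ltbp1 and Ltbp4 had 93.08% and 99.36% of the total of the one used.

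Of the latency proteins, Ltbp3, which forms covalent complexes with TGF-beta propeptides, was the one that passed. It had 81.6, 84.1, 89.0, 80.7 and 83.9 CPM in 1C-MIM, against 67.8, 75.1, 75.5, 68.3 and 74.5 CPM in Control. The groups did not overlap, and both were tight. The log2 fold change was 0.22 (SE 0.05, 95% interval 0.10 to 0.33, edgeR adjusted p = 0.0147).

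Ltbp4, whose variants in mice modify the severity of muscular dystrophy, had 94.7, 131.7, 94.4, 108.5 and 121.1 CPM in 1C-MIM, against 68.2, 100.2, 123.2, 88.7 and 94.5 CPM in Control. The groups overlapped broadly, with Control 1 the lowest and 1C-MIM 2 the highest of all libraries. The groups differed by 0.21 on the log2 scale (SE 0.14, 95% interval -0.09 to 0.52, edgeR adjusted p = 0.289), close to that of Ltbp3 but with a larger error. Ltbp1, which tethers latent TGF-beta to fibronectin and fibrillin, had 15.3 to 22.5 CPM in 1C-MIM and 16.5 to 21.5 CPM in Control, with a log2 fold change of 0.02 (SE 0.11, 95% interval -0.21 to 0.25). Ltbp2, which sits on fibrillin without binding latent TGF-beta, had 0.933, 2.61, 1.16, 0.867 and 1.16 CPM in 1C-MIM, against 1.44, 1.30, 1.58, 1.80 and 1.21 CPM in Control. Only 26 to 76 reads per library lay behind Ltbp2, and 1C-MIM 2 held more than any other library. With a log2 fold change of -0.13 and a 95% interval of -0.72 to 0.46, Ltbp2 did not pass (edgeR adjusted p = 0.766); without 1C-MIM 2 the log2 fold change was -0.51 (edgeR adjusted p = 0.0777).

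The groups did not overlap for 4 of the 10 genes, against 14.6% of all genes tested. Removing each library's trend with transcript length left 3 of the 5 calls. Over all 13880 genes tested, 2260 were called in that setting, against 2999 in the main fit. Tgfb1 has the shortest of the 10 transcripts (2094 bases, against 3385 to 7910 for the others), and with the trend removed its log2 fold change was -0.48 (edgeR adjusted p = 0.00339). Tgfb2 kept its call at 0.19 (adjusted p = 0.0232) and Tgfbr3 at 0.28 (adjusted p = 0.0182), while Tgfb3 at 0.17 (adjusted p = 0.0811) and Ltbp3 at 0.11 (adjusted p = 0.308) lost theirs. With library totals in place of TMM factors, Tgfb1 (-0.64, edgeR adjusted p = 0.00122) and Tgfbr3 (0.35, adjusted p = 0.0134) were the 2 that passed. The animal numbers fall into a pair of series, with 3 animals per group in the first and 2 per group in the second. Within the first and the second series the log2 fold changes were -0.54 and -0.59 for Tgfb1, 0.25 and 0.32 for Tgfb2, 0.18 and 0.21 for Tgfb3, 0.38 and 0.49 for Tgfbr3 and 0.23 and 0.21 for Ltbp3, each with the sign of the whole set. Of these, Tgfbr3 in the second series passed the test (edgeR adjusted p = 0.0436). Over all genes, 95 of 13935 tested passed in the first series and 396 of 13955 in the second.

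**Figure D3:**
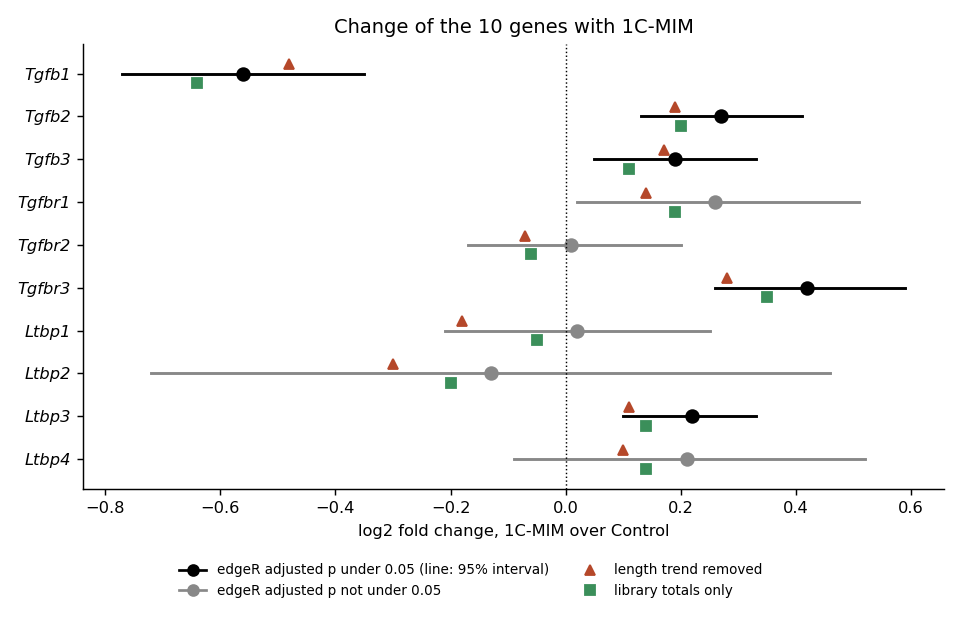
Log2 fold change of the 10 genes, 1C-MIM over Control, with its 95% interval (black, edgeR adjusted p under 0.05; grey, not), and the same value with the length trend removed (triangles) and with library totals as the scaling (squares). Tgfb1 lies below 0 at -0.56 and Tgfbr3 above 0 at 0.42 under each, while for Ltbp1 and Tgfbr2 the alternatives fall on the other side of 0.

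Because a ratio of counts inside a library does not depend on how libraries are scaled, the 12 ratios between genes of the same class were compared by exact permutation over all assignments of the libraries (two-sided, Benjamini-Hochberg over the 12). Tgfb1 differed in its change from both other ligands. The log2 ratio of Tgfb1 to Tgfb2 counts was -2.25 ± 0.14 in 1C-MIM and -1.42 ± 0.27 in Control (SD, n = 5 each), a difference of -0.83 with no overlap (exact p = 0.00794, the smallest this design allows; adjusted p = 0.0317). That of Tgfb1 to Tgfb3 was -2.87 ± 0.06 in 1C-MIM and -2.13 ± 0.21 in Control, a difference of -0.74 (exact p = 0.00794, adjusted p = 0.0317). Tgfb2 to Tgfb3 differed by 0.08, within the spread (exact p = 0.413, adjusted p = 0.45).

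Among the receptors, the log2 ratio of Tgfbr2 to Tgfbr3 counts was 0.21 ± 0.07 in 1C-MIM and 0.61 ± 0.13 in Control, again without overlap (difference -0.40, exact p = 0.00794, adjusted p = 0.0317). Tgfbr1 to Tgfbr2 (0.25) and Tgfbr1 to Tgfbr3 (-0.15) did not pass (exact p = 0.127 and 0.317, adjusted p = 0.231 and 0.419). None of the 6 ratios between latency proteins passed (exact p = 0.111 to 0.944, adjusted p = 0.231 to 0.944), among them Ltbp3 to Ltbp4 with a difference of -0.01. With the length trend removed, the 3 ratios that passed were -0.65 for Tgfb1 to Tgfb2, -0.64 for Tgfb1 to Tgfb3 and -0.35 for Tgfbr2 to Tgfbr3 (exact permutation, adjusted p = 0.0317 each).

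**Figure D4:**
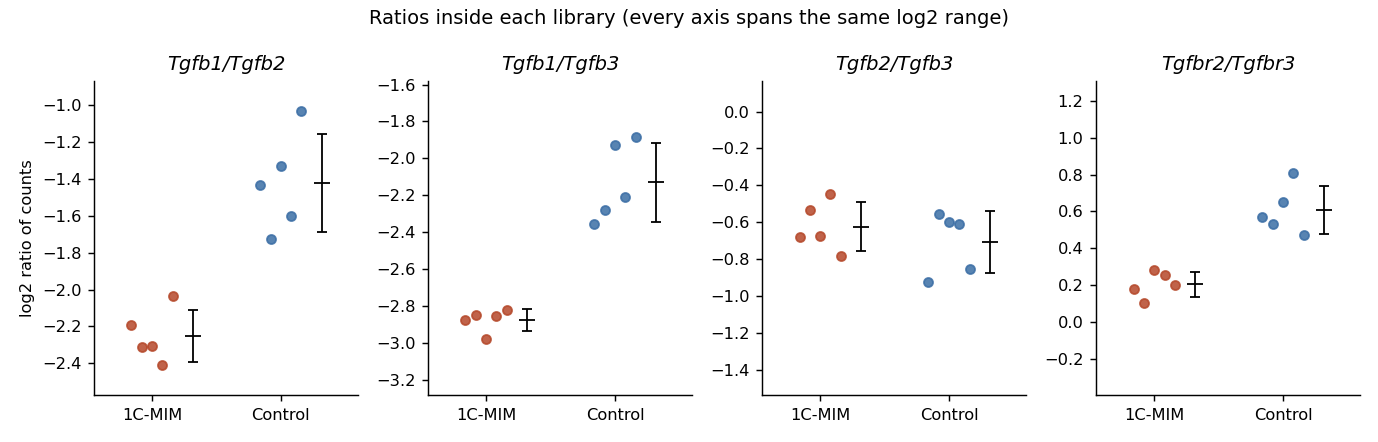
Log2 ratio of counts within each library for 4 pairs of genes, 1C-MIM left and Control right, with the group mean and SD (n = 5); all axes span the same log2 range. Tgfb1 to Tgfb2, Tgfb1 to Tgfb3 and Tgfbr2 to Tgfbr3 separate the groups, with differences of -0.83, -0.74 and -0.40, and Tgfb2 to Tgfb3 does not, with 0.08.

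Markers of other cell types also differed between the groups, in part of several lists. Beside the decrease of Tgfb1, 12 of 14 macrophage markers were lower in 1C-MIM and 0 higher, with a summed level of 166.9 to 243.3 CPM in 1C-MIM and 290.0 to 560.3 CPM in Control. Of 2 platelet markers tested, 1 was lower (Pf4, log2 fold change -0.73) and Itga2b did not pass (-0.34), while Ppbp and Gp9 were too low to test; the platelet list summed to 7.97 to 9.26 CPM in 1C-MIM and 9.98 to 16.7 CPM in Control. Fibro-adipogenic progenitor markers, of connective tissue cells, were lower for 5 of 10 and higher for 0 (1520.6 to 2163.6 CPM in 1C-MIM, 1803.5 to 2366.7 CPM in Control, overlapping). Beside the increases of Tgfb2, Tgfb3, Tgfbr3 and Ltbp3, 6 of 11 endothelial markers were higher and 0 lower (335.9 to 394.1 CPM in 1C-MIM, 248.0 to 341.7 CPM in Control, overlapping). Of smooth muscle and pericyte markers, 2 of 9 were higher and 0 lower (488.6 to 692.8 CPM in 1C-MIM, 354.3 to 490.0 CPM in Control, overlapping). Control 1 gave the 248.0 and the 490.0 CPM. The myofibre and Schwann cell lists, given below, also held higher genes and 0 lower ones. No marker in these lists was at 0 over all libraries, and the part of cell content in the changes of the 10 genes was not tested.

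The other lists bear on the makeup of the samples. Myofibre genes summed to 182439.3 to 210072.6 CPM in 1C-MIM and 162180.6 to 182955.6 CPM in Control, with 4 of 10 higher and 0 lower, so the labelled tissue's own genes were abundant in every library. Lymphocyte markers (3 of 6 tested lower), tenocyte markers (0 of 5 changed), Schwann cell markers (1 of 6 higher), adipocyte markers (1 of 3 lower) and satellite cell markers (0 of 2 changed) summed to at most 347.2 CPM in any library. Neuronal markers (0 of 3 tested changed) summed to 26.5 CPM in Control 1, against 5.08 to 6.08 CPM in the other libraries, and Control 1 was also the Control library with the highest Tgfb3 and the lowest Ltbp4.

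Among the lists of other pathway genes, every call was lower in 1C-MIM for the scaffold, the activators and the targets. In the scaffold 1 gene was called higher with the replicate number as a block, and also 1 without Control 3. For the signal transducers every call was higher, but with library totals as the scaling 1 was higher and 1 lower. The co-receptors and the feedback inhibitors had calls both ways, 1 higher and 2 lower in each list. The background shares of calls were 9.78% for higher and 11.8% for lower. In the microfibril scaffold, the fibres to which LTBPs bind, 7 of 12 tested genes were lower and 0 higher, with a median log2 fold change of -0.35, beside 0.001 for all genes. Mfap2, a microfibril glycoprotein that binds fibrillin, fell by 0.94 on the log2 scale (SE 0.16, edgeR adjusted p = 0.00245). Adamtsl2, a secreted protein that binds LTBP1 and fibrillin, fell by 1.11 (SE 0.20), and Mfap5, another microfibril glycoprotein, by 0.70 (SE 0.14). Adamtsl2 and Mfap2 were low, with means of 1.08 and 1.71 CPM in 1C-MIM and 2.34 and 3.27 CPM in Control. Fbn1 itself, the main adult fibrillin, did not pass (-0.34, SE 0.20, edgeR adjusted p = 0.232). Neither did Fn1, fibronectin (-0.24, SE 0.20, edgeR adjusted p = 0.405). The count was 3 of 12 without 1C-MIM 4 alone, and also 3 without Control 1 and Control 5 together.

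Of 16 tested genes that anchor or activate the latent complex, 5 were lower, 0 higher and 11 did not pass (median -0.21). Mmp14, a membrane-bound matrix protease, had 13.4 ± 1.74 CPM in 1C-MIM and 20.7 ± 2.77 CPM in Control (SD, n = 5 each), a difference of -0.63 on the log2 scale (SE 0.11; adjusted p = 0.00241 by edgeR). The urokinase receptor gene Plaur fell by 1.03 (SE 0.21) from a low level, with means of 0.786 CPM in 1C-MIM and 1.61 CPM in Control. The gelatinase gene Mmp2 fell by 0.69 (SE 0.15), a call that was lost with the replicate number as a block (edgeR adjusted p = 0.0555) and when Control 1 and Control 5 were both left out (adjusted p = 0.0689). The integrin genes Itgav, Itgb1, Itgb3, Itgb5 and Itgb6 lay between -0.11 and 0.13 and did not pass. Furin, the protease that cuts the ligand from its propeptide, had 0.07 (SE 0.06).

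Among 13 co-receptors and ligand-binding modulators, 1 was higher, 2 lower and 10 did not pass (median -0.02). The count of lower ones was 1 without Control 1, 3 or 5 or 1C-MIM 3 or 4, each left out alone. It was 3 without 1C-MIM 1 or 1C-MIM 2, each left out alone, and 3 with library totals as the scaling. Eng, endoglin, the endothelial relative of betaglycan, rose by 0.27 (SE 0.06, edgeR adjusted p = 0.00992). It had 49.5, 49.5, 58.0, 48.8 and 52.4 CPM in 1C-MIM, against 42.0, 41.3, 46.4, 40.6 and 43.4 CPM in Control, with no overlap. Biglycan, Bgn, a proteoglycan that binds TGF-beta, fell by 0.67 (SE 0.15), and Vasn, whose product traps TGF-beta, by 0.34 (SE 0.10). The Bgn call was lost with the replicate number as a block (edgeR adjusted p = 0.0513) and at -0.54 when Control 1 and Control 5 were both left out (adjusted p = 0.0771), which left 0 of the 13 lower. The Vasn call was lost without Control 1, 3 or 5 or 1C-MIM 3 or 4, each left out alone (adjusted p = 0.0522 to 0.0913).

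Of 10 signal transducers, 5 were higher, 0 lower and 5 did not pass (median 0.31), and the count fell to 3 higher when any one of Control 3 and the 1C-MIM libraries 2, 3 and 4 was left out. Tab2, an adaptor of the kinase TAK1, rose by 0.36 (SE 0.06, edgeR adjusted p = 0.00228), Map3k7, which encodes TAK1, by 0.26 (SE 0.07), and Zfyve9, the SARA protein that brings SMADs to the receptor, by 0.28 (SE 0.07). The common mediator Smad4 averaged 48.3 ± 4.09 CPM in 1C-MIM and 38.2 ± 5.66 CPM in Control (SD, n = 5 each), a rise of 0.34 on the log2 scale (SE 0.10) with edgeR adjusted p = 0.028. Leaving out Control 3 alone, or any one of the 1C-MIM libraries 2, 3 and 4, ended that call at adjusted p = 0.0549 to 0.064. The receptor-activated Smad2 (0.06, SE 0.07) and Smad3 (-0.16, SE 0.07) did not pass (edgeR adjusted p = 0.55 and 0.0958). With library totals as the scaling, 1 transducer was higher and 1 lower, and with the length trend removed 3 were higher and 1 lower; Smad3 passed as lower in both settings, at -0.23 and -0.26 (edgeR adjusted p = 0.0388 and 0.00227), and at -0.20 without Control 5 (adjusted p = 0.0346).

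Of the 11 feedback inhibitors, 1 was higher, 2 lower and 8 did not pass (median -0.01). Tgif1, a SMAD co-repressor, fell by 0.52 (SE 0.15) and the inhibitory Smad6 by 0.36 (SE 0.11). Their calls were lost when single libraries were left out, Control 5 or 1C-MIM 2 or 4 for Tgif1 (edgeR adjusted p = 0.0522 to 0.0678; 0 inhibitors passed without Control 5 or 1C-MIM 4) and Control 2 or 5 or 1C-MIM 3 or 4 for Smad6 (adjusted p = 0.0547 to 0.0909). The Tgif1 call was also lost with the length trend removed (-0.39, adjusted p = 0.0717) and, at -0.28, when Control 1 and Control 5 were both left out (adjusted p = 0.148). Ppm1a, a phosphatase that acts on SMADs, was at the threshold (0.16, SE 0.05, edgeR adjusted p = 0.0496; 0.0535 to 0.0988 when any single library was left out). Smad7, the inhibitor that TGF-beta itself induces, had 6.49, 6.04, 5.88, 5.94 and 6.45 CPM in 1C-MIM against 4.76, 6.36, 6.58, 6.92 and 6.40 CPM in Control. Control 1 was the low library, and the log2 fold change was -0.01 (SE 0.10, adjusted p = 0.951 by edgeR). Without Control 1 and Control 5 together, 0 of the 11 inhibitors passed.

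Of 22 tested genes known as TGF-beta targets, 8 were lower, 0 higher and 14 did not pass (median -0.25). The 3 with the smallest p were Junb, the AP-1 factor (-1.29, SE 0.09), Timp1, the metalloproteinase inhibitor (-2.78, SE 0.32), and the fibrillar collagen gene Col3a1 (-1.55, SE 0.17). Timp1 was low, with means of 0.534 CPM in 1C-MIM and 3.7 CPM in Control. Ctgf (connective tissue growth factor), a widely used readout of the pathway, differed by -0.49 on the log2 scale (SE 0.26) and did not pass (adjusted p = 0.186 by edgeR). Without Control 1 and Control 5 together, 5 targets were lower.

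**Figure D5:**
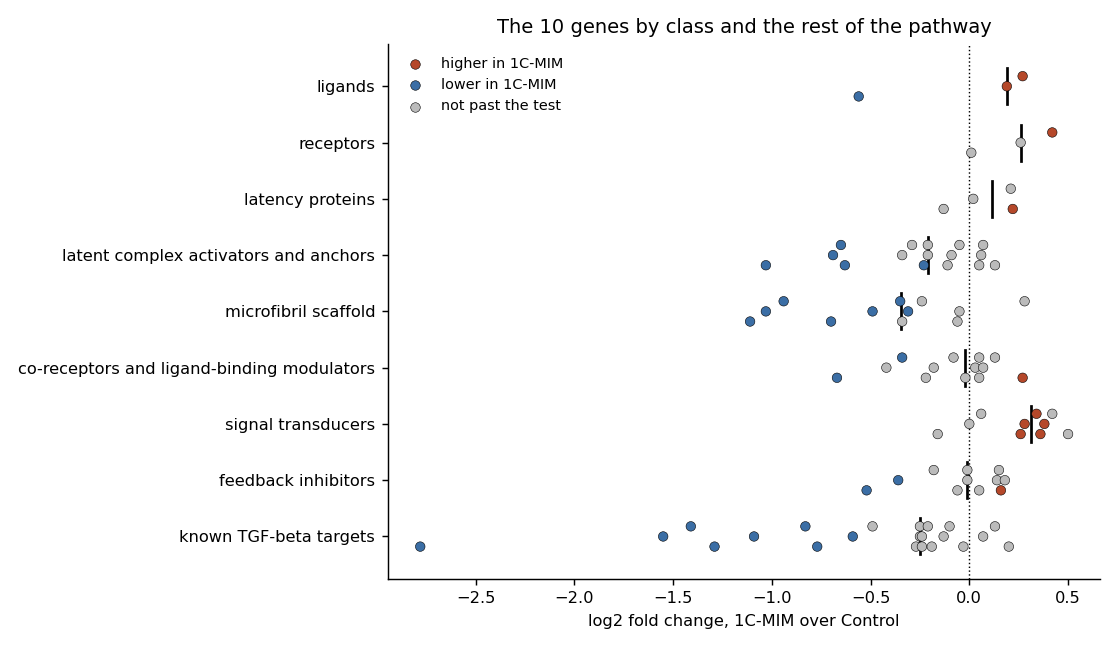
Log2 fold changes, 1C-MIM over Control, of the 10 genes by class and of the other pathway genes by list, with a point per gene coloured by whether it passed the edgeR test and a black bar at each list's median; points are spread vertically for visibility. Called genes lie left of 0 for the activators, the scaffold (median -0.35) and the targets (median -0.25), and right of 0 for the transducers (median 0.31).

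Genes with the most similar profile over the 10 libraries were found for the 3 genes with the smallest p, as those with the smallest root mean square difference between log2 CPM deviations from each gene's own mean, among 11797 genes. For Tgfb1 they were Capg, an actin-capping protein of macrophages (difference 0.0591), the lysosomal cathepsin gene Ctsz (0.0596) and Clic1 (0.061), set against a root mean square deviation of Tgfb1 itself of 0.304. For Tgfbr3 they were Timp3, a matrix-bound metalloproteinase inhibitor (0.0535), Slc43a3 (0.0818) and Plekhg3 (0.0852), against 0.239 for Tgfbr3. For Tgfb2 they were Pias2 (0.0273), Dlg1 (0.04) and Rlf (0.0446), against 0.158. The likeness covers the difference between the groups as well as that within them.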

How the data were processed

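RNA of quadriceps from 5 1C-MIM and 5 Control mice was sequenced; RNA extraction and library preparation were done by Active Motif, per the labels. Each animal has a deposited table of 33984 RefSeq transcripts. Its count column holds whole numbers that the authors left unscaled, per the file headers and values. Its FPKM column, deposited by the authors, scales counts by length and library. Its TPM column, also deposited, was not used. Tools listed in the submitters' processing notes, with no role or order, include STAR, Salmon 1.5.2, featureCounts, Subread 2.0.1, StringTie 2.2.1 and Trim Galore 0.6.7, with build GRCm39. The transcript with the largest total stood for each symbol (the first listed on a tie), because isoforms often repeat the same reads; 45.3 to 47.4% of transcript counts lay on other transcripts. Library totals were then 28521250 to 31771291. Transcript lengths were worked out from counts and FPKM.

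Counts were filtered with filterByExpr, scaled by TMM and tested with edgeR 4.0.16 in R 4.3.3 (robust quasi-likelihood, only these 2 groups, no covariate); a call is an adjusted p under 0.05, and SE is the log2 fold change over the root of F. Ratios used a prior count of 0.5 and profiles a prior count of 2 on log2 CPM. Each library's length trend was a natural spline with 3 inner knots. DESeq2 1.42.0 and limma 3.58.1 (voom) served as alternatives, beside other scalings and filters, blocks, summed transcripts and left-out libraries.

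The text names the 10 genes, the 3 smallest p of each pathway list, Smad2, Smad3, Smad4, Smad6 and Smad7, and the nearest profiles. Fbn1, Fn1, Furin, the integrins, Ctgf, Pf4 and Itga2b were added after their values were seen. The genes and lists were chosen with earlier results of these data known.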

Additional observations from a re-analysis of the deposited data

Results flagged for a closer look

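In 5 of 64 groups of 5 libraries examined, a single library stood apart from the other 4 by Dixon's criterion, which chance alone meets in about 1 in 20 groups. Among the 10 genes, Ltbp2 had 2.61 CPM in 1C-MIM 2, against 0.867 to 1.16 CPM in the other 1C-MIM libraries. Tgfb3 had 41.9 CPM in Control 1, against 34.2 to 36.3 CPM in the other Controls. Tgfbr3 had 33.9 CPM in Control 3, against 27.5 to 29.1 CPM in the other Controls. Among the other pathway genes, Ppm1a had 262.0 CPM in 1C-MIM 1, against 226.9 to 234.8 CPM in the other 1C-MIM libraries, and Smad7 had 4.76 CPM in Control 1, against 6.36 to 6.92 CPM in the other Controls.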

How the results depend on the processing

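Tgfb1 and Tgfbr3 kept their direction and their call under every scaling, filter, tool, block and single left-out library tried, and lost it only within the series of animal numbers (Tgfb1 in both, Tgfbr3 in the first). All values here are log2 fold changes or log2 ratio differences, 1C-MIM minus Control, and no cause of a lost call or turned direction was tested. In the first series (3 against 3) 0 of the 10 genes passed by edgeR, beside 95 of all 13935 genes tested. There Tgfb1 was -0.54, Tgfb2 0.25, Tgfb3 0.18, Tgfbr3 0.38 and Ltbp3 0.23. In the second series (2 against 2) 1 of the 10 passed, beside 396 of all 13955 genes tested. Tgfb1 at -0.59, Tgfb2 at 0.32, Tgfb3 at 0.21 and Ltbp3 at 0.21 were not called. Library totals left 2 calls (Tgfb2 0.2, Tgfb3 0.11 and Ltbp3 0.14 lost), and removal of the length trend left 3 (Tgfb3 0.17 and Ltbp3 0.11 lost). The Tgfb3 call was also lost with no filter (0.2), with the animal series as a block (0.19) and with summed transcripts (0.19). Without single libraries Tgfb3 ran from 0.16 to 0.24, Tgfbr2 from -0.03 to 0.08, Ltbp1 from -0.05 to 0.09 and Ltbp2 from -0.51 to 0, and 4 to 5 genes were called. Uncalled values turned sign for Tgfbr2 with library totals (-0.06), in the first series (-0.02), without Control 1 and 5 (-0.1) and with the length trend removed (-0.07). They turned for Ltbp1 with library totals (-0.05), in the first series (-0.07) and with the length trend removed (-0.18), and for Ltbp2 in the first series (0.13). Smad2 turned with library totals (-0.01) and the length trend removed (-0.16), and Smad7 in the first series (0.06) and without single libraries (-0.09 to 0.03).

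Over all genes, 606 were higher and 2895 lower with library totals, 31 and 64 in the first series, 127 and 269 in the second, and 832 and 976 without Control 1 and 5. Without single libraries 741 to 1559 were higher and 941 to 1885 lower, fewest without 1C-MIM 4. Without Control 1 and 5 the ratio differences were -0.7 for Tgfb1 to Tgfb2, -0.74 for Tgfb1 to Tgfb3 and -0.46 for Tgfbr2 to Tgfbr3. The exact permutation test gave adjusted p = 0.0714 for each. With so few libraries, full separation of these 3 ratios gives that same adjusted p, so they could not pass there. Their groups still did not overlap. Tgfb2 to Tgfb3 (-0.04) and Ltbp3 to Ltbp4 (0.12) turned sign in that setting. Without single libraries Ltbp3 to Ltbp4 ran from -0.09 to 0.08, Ltbp1 to Ltbp2 from 0.13 to 0.45, Ltbp2 to Ltbp3 from -0.71 to -0.34 and Ltbp2 to Ltbp4 from -0.66 to -0.33; the last 3 passed only without 1C-MIM 2.

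The groups share replicate numbers, but libraries of the same number correlated at -0.075 to 0.387 after the group means were removed, those of different numbers at -0.371 to 0.382, and 4 of 10 correlated best with their own number; not every pair passed 0.1, so the numbers were not treated as pairing, which does not show that they are unrelated. With the replicate block, edgeR called 1932 genes higher and 1965 lower, and the same 5 of the 10 genes, with Tgfb1 at -0.56 and Tgfbr3 at 0.42; 6 of the 22 targets were then lower, and 1 scaffold gene was higher. Under the replicate block the ratios were tested by sign flips, which cannot pass (smallest exact p = 0.0625), at -0.83, -0.74 and -0.4 for the 3 called ratios. Ltbp2 had the fewest reads of the 10 genes, 26 to 76 per library.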
